A study of Mus musculus with 18 samples.

Results

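The replication-dependent histone genes were described in thymic invariant natural killer T (iNKT) cells, lymphocytes that bear a semi-invariant T cell receptor specific for lipids held by CD1d. Members were the genes measured by a probe set whose only symbol began with H1f, H2ac, H2bc, H3c or H4c, the newer names of the Hist1h to Hist4h genes, and the brightest probe set stood for each gene. This name rule gave 29 genes of the 22180 that had a probe set with a single symbol: 8 linker histone H1 genes, 6 H2A, 8 H2B and 7 H4 genes. No H3 gene had a probe set of its own. Of the 29, 26 belong to the replication-dependent family, and the other 3, H1f7 of the testis, H1f8 of the oocyte and the replication-independent H1f10, were taken by their names alone. The table of genes placed 21 members on chromosome 13, 5 on chromosome 3, 2 on chromosome 6 and 1 on chromosome 15.

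The core histones H2A, H2B, H3 and H4 form the spool on which DNA is wound, and H1 binds the DNA between spools. Replication-dependent genes, clustered in the genome and mostly without introns, supply these proteins in S phase, when new DNA must be packaged. NPAT drives their transcription at histone locus bodies, their RNA ends in a stem-loop bound by SLBP instead of a poly(A) tail, and it is degraded when DNA synthesis stops. Some members, H1f2 and H2bc21 among them, are known to make polyadenylated RNA as well in cells that have left the cell cycle. In iNKT cells, proliferation marks the early stages after positive selection, and most cells of the NK1.1-bearing stage divide rarely.

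Expression had been measured on 18 arrays of sorted cells from C57BL/6 mice, 3 arrays for each of 6 groups. The WT groups were wild-type cells, and the Mst1KO groups came from Cd4CreMst1fl/fl mice, in which a Cre recombinase driven by Cd4 removes loxP-flanked Mst1 (Stk4), the gene for a Hippo pathway kinase, in cells that have expressed Cd4, so that not only iNKT cells are affected. Within each genotype, CD24-negative cells that bound the CD1d tetramer were sorted as S1 (without CD44 and NK1.1), S2 (CD44 only) and S3 (both). No treatment was given, the animals' ages are not stated in the labels used here, and the design counts 3 mice a genotype without saying whether a replicate number marks a mouse. The p-values therefore reflect variation among arrays that could be technical, and 3 arrays a group limit the precision of every value. Values are log2 expression, differences are log2 difference ± SE (n = 3 arrays a group), and a gene was called when its adjusted p was under 0.05 in the limma fit over 13034 genes.

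Of the 29 members 16 passed the filter on dim probe sets, which asked for a value above the array's own median on at least 3 of the 18 arrays. Of the 13 others, 11 were never above it, H2bc22 was on 2 arrays and H4c1 on 1. The array medians lay between 4.81 and 4.93, near the signal of unexpressed genes, where differences are compressed. Histone genes of a class are near copies of each other, so which gene a probe set reads is uncertain even where it carries 1 symbol. The 26 genes also differ in where they are known to be active: H2ac1, H2bc1 and H1f6 are mainly genes of the testis.

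The stretches from 250 bases before to 50 bases after the start of transcription are shown for 5 members that the results turn on, 4 that were lower at S3 (H1f5, H2bc12, H2bc3 and H4c9) and 1 that was not (H1f2). They were taken from RefSeq on mouse build GRCm38.p6, 5′ to 3′ along the gene's own strand: H1f5 at chr13:21780576-21780875 on the minus strand, H2bc12 at chr13:22035571-22035870 on the plus strand, H2bc3 at chr13:23746484-23746783 on the plus strand, H4c9 at chr13:22041313-22041612 on the minus strand and H1f2 at chr13:23738557-23738856 on the plus strand. Capitals mark the motifs searched, on either strand: the CCAAT box, the TATA box (TATAAA), the octamer (ATTTGCAT) of H2B promoters and the H1 box (AAACACA). No searched motif overlaps another in these 5 stretches.
H1f5: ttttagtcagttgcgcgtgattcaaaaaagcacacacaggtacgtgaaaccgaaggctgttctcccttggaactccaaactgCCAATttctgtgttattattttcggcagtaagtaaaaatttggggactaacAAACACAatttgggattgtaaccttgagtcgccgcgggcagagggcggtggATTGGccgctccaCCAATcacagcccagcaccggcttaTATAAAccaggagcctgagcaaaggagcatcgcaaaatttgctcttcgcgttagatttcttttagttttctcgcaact
H2bc12: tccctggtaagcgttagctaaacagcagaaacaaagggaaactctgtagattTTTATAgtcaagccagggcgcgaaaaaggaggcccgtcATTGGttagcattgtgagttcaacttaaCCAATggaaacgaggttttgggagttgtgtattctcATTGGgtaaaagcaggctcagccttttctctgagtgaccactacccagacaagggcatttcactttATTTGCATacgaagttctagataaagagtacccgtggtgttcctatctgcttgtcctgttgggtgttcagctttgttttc
H2bc3: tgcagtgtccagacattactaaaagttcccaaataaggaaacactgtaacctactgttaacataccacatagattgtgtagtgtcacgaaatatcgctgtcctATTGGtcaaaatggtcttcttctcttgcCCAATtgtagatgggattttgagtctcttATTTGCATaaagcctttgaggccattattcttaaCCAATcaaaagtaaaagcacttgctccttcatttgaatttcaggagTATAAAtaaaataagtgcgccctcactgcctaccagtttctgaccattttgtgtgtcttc
H4c9: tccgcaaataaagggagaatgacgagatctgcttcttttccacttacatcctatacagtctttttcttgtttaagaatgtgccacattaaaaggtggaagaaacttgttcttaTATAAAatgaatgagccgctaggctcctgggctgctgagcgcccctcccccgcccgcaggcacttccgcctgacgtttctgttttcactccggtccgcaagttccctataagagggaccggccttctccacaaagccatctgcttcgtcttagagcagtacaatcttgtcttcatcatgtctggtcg
H1f2: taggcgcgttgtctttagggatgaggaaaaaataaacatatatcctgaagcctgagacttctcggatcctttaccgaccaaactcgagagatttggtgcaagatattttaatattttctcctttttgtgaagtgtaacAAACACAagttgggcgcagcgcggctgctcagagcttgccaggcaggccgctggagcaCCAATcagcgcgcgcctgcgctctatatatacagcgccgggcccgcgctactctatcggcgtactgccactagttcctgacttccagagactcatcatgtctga

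The H1f5, H2bc12 and H2bc3 stretches each hold CCAAT 3 times counting both strands, whereas the H4c9 stretch has none and carries a single TATAAA. The H1f2 stretch has 1 CCAAT and 1 AAACACA but no TATAAA. It does hold tatatata between its CCAAT and the start, letters that were not searched, so lack of a TATA box is not shown. RefSeq gave promoters for 27 of the 29 members, and H2bc21 and H4c14 had no entry. CCAAT was present in 20 of these 27 (74.1%) against 37.4% of 32851 promoters of the same length, TATAAA in 16 (59.3%) against 13.6%, ATTTGCAT in 8 (29.6%) against 1.74% and AAACACA in 7 (25.9%) against 7.18%. By class, ATTTGCAT was in 5 of 7 H2B and 3 of 6 H2A promoters and in none of the 8 H1 or 6 H4 promoters, and AAACACA in 4 of 8 H1 promoters. The windows of H2ac1 and H2bc1 overlap on opposite strands, as do those of H2ac12 and H2bc12. In each pair the ATTTGCAT is the same stretch of bases counted for both genes, and other motifs in the overlap are also counted for both. CCAAT was in 6 of 6 H2A and 7 of 7 H2B promoters but in 1 of 6 H4 promoters. The E2F motif searched (TTTCCCGC or TTTGGCGC) was in 1 of 27 (3.7%), that of H4c1, against 1.56%. These are matches of letters in a window, not measured binding.

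Within groups, arrays correlated at r between 0.976 and 0.986 over probe sets, and no array repeated the values of another. Stk4, the targeted gene, differed between Mst1KO and WT by -0.29 ± 0.11 at S1 (adjusted p = 0.34). The difference was -0.35 ± 0.11 at S2 (adjusted p = 0.173) and -0.39 ± 0.11 at S3 (adjusted p = 0.0767), and the arrays of the genotypes did not overlap at any stage. Which exons the probe set covers and which the deletion removes were not compared here, so this checks the labels weakly. All 10 of 10 iNKT and T cell markers were above the array median on at least 1 array of every group, with a mean level per array between 9.63 and 10.55, and from S2 to S3 5 fell and 2 rose in WT and 3 fell and 1 rose in Mst1KO.

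In WT cells most tested histone genes fell at S3, with none called between S1 and S2. From S2 to S3, 11 of the 16 tested members fell and 1 rose, with a median difference of -1.36 against 0.00 (-0.001) over all genes. Among all genes tested 23.6% were called in this comparison, 10.4% higher and 13.2% lower. The S2 and S3 arrays did not overlap in 12 of the 16 members, 11 of them lower. Over all genes they did not overlap in 4554 of 13034, of which 2433 were lower. Without the filter, 11 of all 29 members fell and 1 rose, with a median of -0.18 that includes the 13 genes at or near the array's background. In that fit 2707 of 22180 genes were called, 1516 of them lower. The plot of each member against its own mean shows the drop in all 4 classes and the 2 members, H4c14 and H1f2, that ran the other way.

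**Figure D1:**
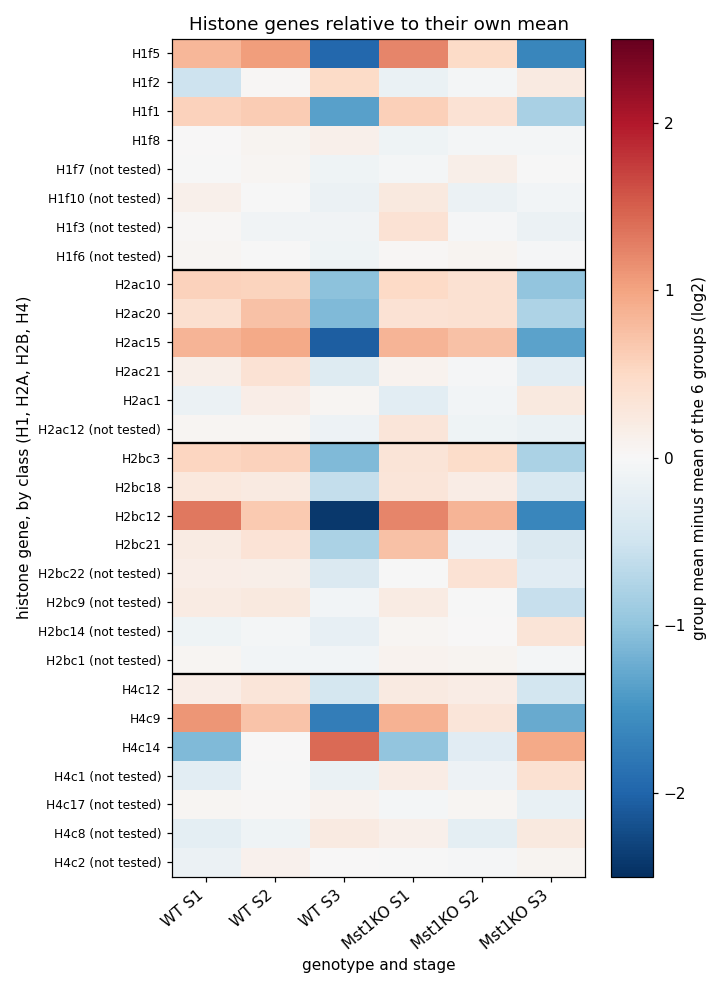
Group mean of each of the 29 histone genes minus the mean of its 6 group means (log2, colour), with genes in rows by class and genotype and stage in columns; "not tested" marks the 13 genes that did not pass the filter. The lowest value is H2bc12 in WT S3, at -2.41, and the highest is H4c14 in WT S3, at 1.42.

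**Figure D2:**
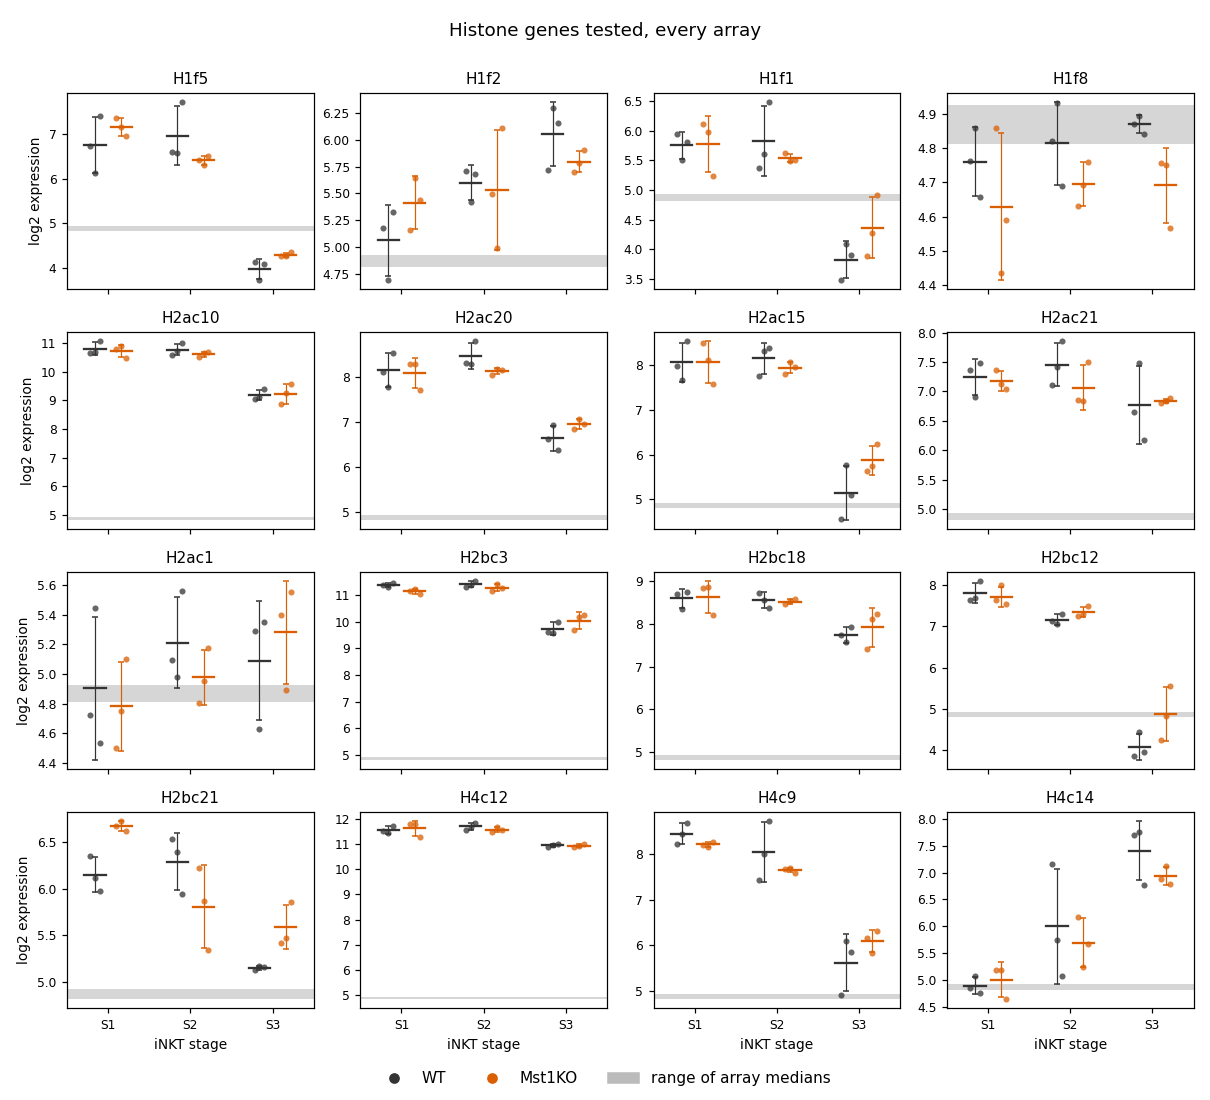
Log2 expression of the 16 tested histone genes on every array (points), with the group mean (bar) and SD (whisker), by stage (x axis) for WT and Mst1KO; the grey band is the range of the array medians, 4.81 to 4.93, and the y axes differ between genes. H2bc12 drops from arrays between 7.06 and 8.10 at WT S1 and S2 to arrays between 3.87 and 4.45 at S3, while H4c14 climbs from 4.76–5.07 at WT S1 to 6.77–7.76 at S3.

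Among the linker histones, which compact chromatin between nucleosomes, H1f5 was the one that fell most. Its WT values were 6.74, 6.14 and 7.39 at S1 and 6.60, 6.57 and 7.72 at S2 in replicates 1 to 3, and 4.13, 3.71 and 4.07 at S3. All 3 S3 arrays lay below every earlier array, and below the median of their own arrays. The drop from S2 to S3 was -2.99 ± 0.28 (7.97-fold, adjusted p = 8.4e-07). H1f1 fell by 1.998 on the log2 scale (SE 0.29, adjusted p = 8.09e-05), from a mean of 5.82 at S2 to 3.83 at S3. H1f5, H1f1 and the H2B gene H2bc12 passed the filter through S1 and S2, since all 3 of their WT S3 arrays were under the median, so their folds may be understated.

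H1f2, which encodes another somatic linker histone, did not take part in that fall and is named with H4c14 after its values were seen. Its WT arrays read 5.18, 4.69 and 5.32 at S1, 5.71, 5.42 and 5.68 at S2, then 5.72, 6.29 and 6.15 at S3. Every S2 and S3 array lay above every S1 array, and S3 lay above S2. H1f2 rose by 0.99 ± 0.23 from S1 to S3 (adjusted p = 0.00309), and neither step passed alone: 0.54 ± 0.23 from S1 to S2 (adjusted p = 0.252) and 0.45 ± 0.23 from S2 to S3 (adjusted p = 0.184). The oocyte gene H1f8 passed the filter on 3 arrays only and stayed between 4.66 and 4.93 on all WT arrays, at the array's background.

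H2A genes fell in 3 of 5 tested cases from S2 to S3. H2ac10 read 10.65, 10.70 and 11.06 at S1, 10.60, 10.72 and 11.002 at S2, then 9.05, 9.12 and 9.39 at S3, with no overlap between S3 and the earlier stages. Its difference was -1.59 ± 0.17 (3-fold, adjusted p = 3.42e-06). H2ac15 fell by 3.01 (SE 0.30, adjusted p = 1.26e-06) and H2ac20 by 1.82 (SE 0.20, adjusted p = 3.82e-06). H2ac21 was not called in any comparison: its WT arrays were 7.36, 6.90 and 7.49 at S1, 7.11, 7.41 and 7.85 at S2, then 6.65, 7.48 and 6.17 at S3. The difference, -0.69 ± 0.27 (adjusted p = 0.077), turned on WT S3 replicate 2, which lay among the S2 values, and without it became -1.05 (adjusted p = 0.00495). Without WT S2 replicate 1 it was also called, at -0.87 (adjusted p = 0.0478). The testis gene H2ac1 lay near the background, between 4.53 and 5.56 on the WT arrays, with -0.12 ± 0.25 from S2 to S3.

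All 4 tested H2B genes fell from S2 to S3 in WT. H2bc12 had the largest drop of all members, with 7.64, 7.69 and 8.10 at S1, 7.13, 7.06 and 7.31 at S2, then 3.87, 4.45 and 3.95 at S3. Its S3 arrays were far below the rest and under their arrays' medians, and the S2 arrays lay below all S1 arrays. The drop from S2 to S3 was -3.07 ± 0.25 (8.41-fold, adjusted p = 1.23e-07), while S2 against S1 was -0.65 ± 0.25 (adjusted p = 0.185). H2bc3 read 11.38, 11.31 and 11.45 at S1, 11.33, 11.37 and 11.53 at S2, then 9.61, 9.57 and 10.01 at S3, a separation of more than 1 log2 unit between stages. Its drop was -1.68 ± 0.15 (3.2-fold, adjusted p = 3.07e-07). H2bc21 (-1.13 ± 0.19) and H2bc18 (-0.82 ± 0.21), both on chromosome 3, also fell without overlap.

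H4 genes moved both ways. H4c9 read 8.22, 8.44 and 8.69 at S1, 7.42, 7.997 and 8.74 at S2, then 4.91, 6.09 and 5.86 at S3. The S3 arrays lay below all others, and the drop was -2.43 ± 0.29 (5.4-fold, adjusted p = 8.15e-06). H4c12 changed by -0.75 ± 0.13 (1.68-fold, adjusted p = 0.000411), from 11.57, 11.71 and 11.86 at S2 to 10.90, 10.97 and 11.02 at S3, again without overlap.

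H4c14, an H4 gene of the chromosome 3 cluster, rose. Its WT arrays were 4.85, 5.07 and 4.76 at S1, 7.17, 5.75 and 5.07 at S2, then 7.70, 7.76 and 6.77 at S3. S1 lay at the background, S2 spread over more than 2 log2 units, and S3 overlapped with S2 through WT S2 replicate 1. From S1 to S3 the rise was 2.52 ± 0.39 (adjusted p = 8.56e-05), with no overlap, and may be understated because S1 lay at the background. It was called in all 6 fits that left out an array. The step from S2 to S3, 1.42 ± 0.39 (adjusted p = 0.0144), was less secure. It was called in 2 of 6 fits without an array, being lost without WT S2 replicate 2, WT S2 replicate 3, WT S3 replicate 1 or WT S3 replicate 2, and the fit on these 2 groups alone gave adjusted p = 0.0995.

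Between S1 and S2 in WT no member passed the test (0 of 16), with a median of 0.12, beside 3.84% of all genes. The unadjusted p was under 0.05 in 3 members and in 2143 of all 13034 genes. Over the whole span from S1 to S3, 11 members fell and 2, H4c14 and H1f2, rose, where 33.8% of all genes were called, 15.4% higher and 18.4% lower. The 2 spans that end in S3 share the S3 arrays. H2bc12 changed by -3.72 ± 0.25 (13.2-fold), H4c9 by -2.83 ± 0.29 and H1f5 by -2.79 ± 0.28 from S1 to S3.

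A fall at S3 was also measured in Mst1KO cells. From S2 to S3, 9 of 16 tested members fell and 1 rose, with a median of -0.91 against -0.03 over all genes, of which 17.2% were called, 8.01% higher and 9.18% lower. The S2 and S3 arrays did not overlap in 11 of the 16 members, 10 of them lower. Over all genes they did not overlap in 4730 of 13034, of which 2625 were lower. When quantile normalization was repeated, the members counted 10 lower and 1 higher, while the lower share of all called genes went from 53.4% to 64%. Without the filter, 10 of 29 members fell and none rose, where 1952 of 22180 genes were called, 1040 of them lower. The 9 genes that fell are all among the 11 of WT, which makes 81.8% of the WT list and 100% of the Mst1KO list. No array entered both comparisons. The overlap was not counted over all genes, so it is not shown to be particular to histone genes.

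**Figure D3:**
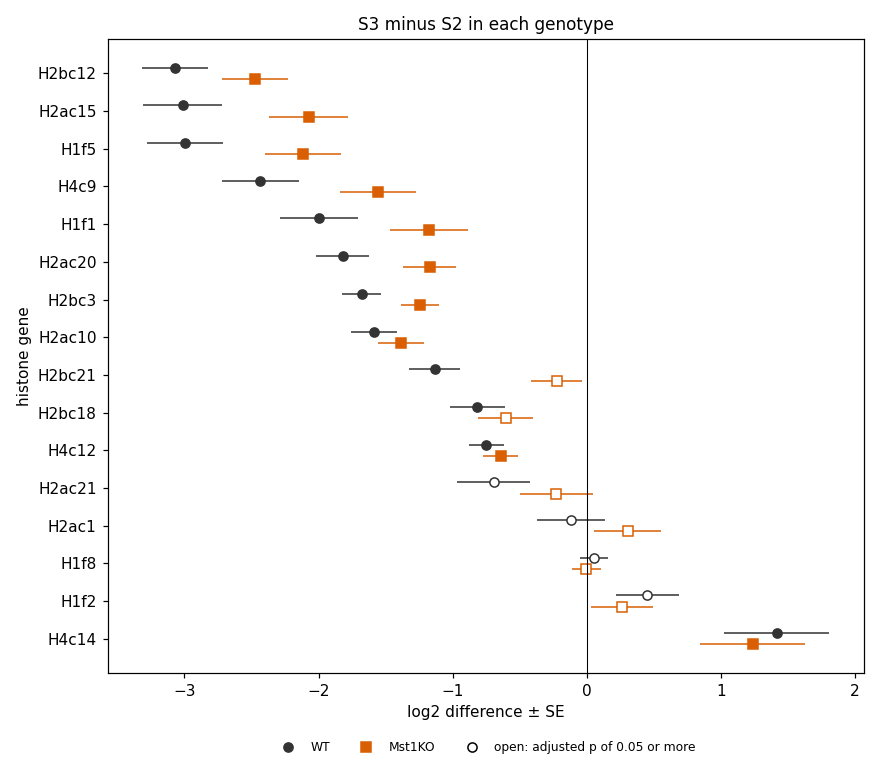
S3 minus S2 for the 16 tested histone genes (log2 difference, whiskers SE, n = 3 arrays a group), in WT and in Mst1KO; filled symbols are called, open symbols have an adjusted p of 0.05 or more. WT points run from -3.07 to 1.42 and Mst1KO points from -2.47 to 1.24, with H2bc21 and H2bc18 filled in WT only.

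In Mst1KO, H1f5 read 7.36, 7.15 and 6.96 at S1, 6.41, 6.31 and 6.5002 at S2, then 4.27, 4.26 and 4.34 at S3, so that the 3 stages did not overlap. The S2 to S3 difference was -2.12 ± 0.28 (4.33-fold, adjusted p = 5.27e-05). H2bc12 read 7.63, 7.99 and 7.53 at S1, 7.24, 7.31 and 7.49 at S2, then 4.24, 4.83 and 5.55 at S3. The S3 arrays spread widely but stayed below all others, with -2.47 ± 0.25 (5.55-fold, adjusted p = 2.41e-06). H4c9 went from 7.68, 7.69 and 7.60 at S2 to 6.15, 5.83 and 6.31 at S3 (-1.56 ± 0.29, adjusted p = 0.00106), without overlap.

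H2bc3, H2ac10 and H4c12 fell in Mst1KO as well. H2bc3 read 11.16, 11.24 and 11.06 at S1, 11.14, 11.44 and 11.28 at S2, then 9.68, 10.19 and 10.26 at S3 (-1.24 ± 0.15 from S2, adjusted p = 1.25e-05). H2ac10 went from 10.498, 10.64 and 10.68 at S2 to 8.87, 9.24 and 9.57 at S3 (-1.38 ± 0.17, adjusted p = 2.39e-05). H4c12 went from 11.504, 11.69 and 11.58 to 10.89, 10.95 and 11.02 (-0.64 ± 0.13, adjusted p = 0.00239). In each of the 3 genes the S3 arrays lay apart from S2. H2ac15 (-2.07 ± 0.30), H2ac20 (-1.17 ± 0.20) and H1f1 (-1.17 ± 0.29) completed the list, H1f1 losing its call without Mst1KO S3 replicate 1. H2bc18 was at -0.60 ± 0.21 and was not called (adjusted p = 0.0542).

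H2bc21 is an H2B gene of the chromosome 3 cluster. Its Mst1KO arrays read 6.67, 6.72 and 6.61 at S1, 6.22, 5.86 and 5.34 at S2, then 5.42, 5.48 and 5.85 at S3. It fell from S1 to S2 (-0.86 ± 0.19, 1.82-fold, adjusted p = 0.00952), and S2 and S3 overlapped, with -0.22 ± 0.19 (adjusted p = 0.475). In WT the arrays were 6.35, 6.12 and 5.98 at S1, 6.53, 6.39 and 5.94 at S2, then 5.13, 5.17 and 5.16 at S3. From S1 to S3 H2bc21 fell in both genotypes (-0.996 ± 0.19 in WT and -1.09 ± 0.19 in Mst1KO). The genotype difference of the S1 to S2 step was -1.0021 ± 0.27 (adjusted p = 0.391) and that of the S2 to S3 step 0.91 ± 0.27 (adjusted p = 0.179), so a different course in the genotypes was not shown. H2bc21 was the 1 member of 16 called from S1 to S2 in Mst1KO, where 6.67% of all genes were called and 2.9% lower.

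H4c14 rose in Mst1KO too, and H1f2 was not called there. H4c14 read 5.19, 5.19 and 4.64 at S1, 6.17, 5.25 and 5.67 at S2, then 6.89, 7.13 and 6.79 at S3, with S3 above every earlier array. It rose by 1.93 ± 0.39 from S1 to S3 (adjusted p = 0.00135). From S2 to S3 the rise was 1.24 ± 0.39 (adjusted p = 0.039), was called in 1 of 6 fits that left out an array (the 1 without Mst1KO S2 replicate 1) and had adjusted p = 0.0535 without the filter. H1f2 read 5.16, 5.65 and 5.44 at S1, 5.50, 4.99 and 6.11 at S2, then 5.70, 5.78 and 5.90 at S3. Its S3 arrays lay above S1 but within the S2 range, and the S1 to S3 difference, 0.38 ± 0.23, was not called (adjusted p = 0.265). The genotype difference of its S2 to S3 step was -0.19 ± 0.33 (adjusted p = 0.883).

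From S1 to S3 in Mst1KO, 11 members fell and 1, H4c14, rose, beside 26.6% of all genes called, 12.3% higher and 14.4% lower. The 11 that fell were the same 11 genes as in WT (100% of each list), an overlap that was not counted over all genes either. H1f5 fell by 2.86 (SE 0.28), H2bc12 by 2.84 (SE 0.25) and H4c9 by 2.12 (SE 0.29). H2bc18 was the least secure of the 11, at -0.71 ± 0.21 (adjusted p = 0.0165), and was called in 3 of 6 fits that left out an array, being lost without Mst1KO S1 replicate 1, Mst1KO S1 replicate 2 or Mst1KO S3 replicate 1.

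Mst1KO was set against WT at each stage to see whether the histone genes differ with the genotype. None of the 16 members was called at S1, S2 or S3 by limma, where 0.33%, 1.17% and 3.4% of all genes were. An unadjusted p under 0.05 was found for 1, 1 and 4 of the 16 members, beside 1457, 1741 and 2176 of all 13034 genes. At S1 the median difference was -0.02, with 8 members above 0 and 8 below. At S2 it was -0.22, with 15 of 16 below 0, where all genes had a median of 0.0144 and 6074 of 13034 below 0. At S3 it was 0.25, with 12 of 16 above 0, or 13 with each array centred on its median, where H4c12 changed sign. All genes had a median of 0.0097 at S3, with 6786 of 13034 above 0. The members were read on the same arrays, so their signs are not independent observations. Of all genes called at S3, 30.9% were lower in Mst1KO, or 42.9% when quantile normalization was repeated.

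**Figure D4:**
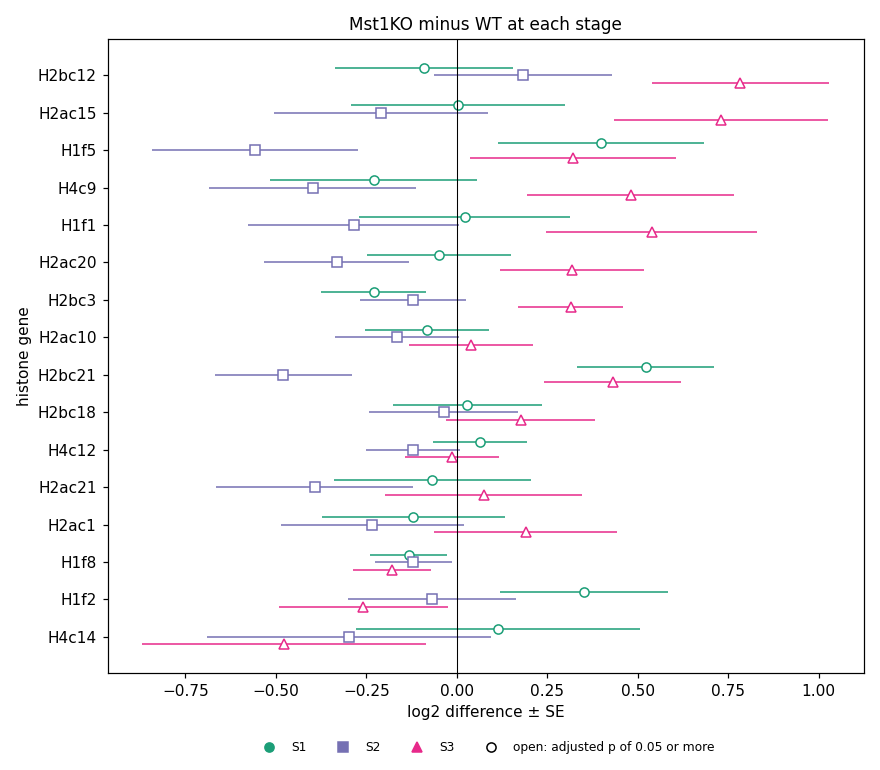
Mst1KO minus WT for the 16 tested histone genes (log2 difference, whiskers SE, n = 3 arrays a group) at S1, S2 and S3, in the order of the WT fall from S2 to S3. All symbols are open, since no adjusted p was under 0.05. Below 0 lie 15 of 16 S2 squares, and above 0 lie 12 of 16 S3 triangles, all read on the same arrays. Of all 13034 genes, 6074 lay below 0 at S2 and 6786 above 0 at S3.

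The member with the largest difference at S3 was H2bc12, whose Mst1KO arrays (4.24, 4.83 and 5.55) overlapped with WT (3.87, 4.45 and 3.95) through Mst1KO S3 replicate 1. The difference was 0.78 ± 0.25, 95% interval 0.26 to 1.30, with adjusted p = 0.0967. Without that array it was at 1.1 (adjusted p = 0.0152), and without any of the 5 other arrays it was not called. H2ac15 was at 0.73 ± 0.30 (adjusted p = 0.218), H2bc21 at 0.43 ± 0.19 (adjusted p = 0.259) and H2bc3 at 0.31 ± 0.15 (adjusted p = 0.286). At S3 the arrays did not overlap in 3 of 16 members, beside 23% of all genes, at S2 in 2 (16.8%) and at S1 in 2 (18.1%), shares near the background.

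The fall from S2 to S3 was compared between genotypes directly, as the difference of the 2 changes. It was above 0 in 13 of 16 members and in 6480 of all 13034 genes. Above 0 means that the change in Mst1KO was less negative or more positive than in WT. The median was 0.45 over the members against 0.00 (-0.0022) over all genes. No member was called, where 0.368% of all genes were. The unadjusted p was under 0.05 in 6 members, beside 1464 of all 13034 genes. The values were 0.94 ± 0.42 for H2ac15 (adjusted p = 0.404), 0.91 ± 0.27 for H2bc21 (adjusted p = 0.179), 0.88 ± 0.40 for H1f5 (adjusted p = 0.419), 0.88 ± 0.40 for H4c9 (adjusted p = 0.424), 0.65 ± 0.28 for H2ac20 (adjusted p = 0.388) and 0.44 ± 0.21 for H2bc3 (adjusted p = 0.443). This difference uses the same S2 and S3 arrays as the genotype comparisons at those stages. For the S1 to S2 step it was not called in any member either (0 of 16, 0.0153% of all genes), with a median of -0.20. Its unadjusted p was under 0.05 in 2 members and in 882 of all 13034 genes.

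On their own probe sets the 13 members that were not tested stayed dim in all groups. Among them H2ac12, whose promoter window overlaps that of H2bc12 on the opposite strand, lay between 1.97 and 2.72 on every array, whereas H2bc12 ran from 3.87 to 8.10. H2bc22, an H2B gene, had group means that ended lower at S3: its WT arrays read 4.51, 4.48 and 4.50 at S2 and 3.99, 4.002 and 3.95 at S3. H4c1 passed the median on Mst1KO S3 replicate 1 alone, at 5.08. H1f3, H1f6, H1f7, H1f10, H2bc1, H2bc9, H2bc14, H4c2, H4c8 and H4c17 were never above the median. Probe sets that name some untested members together with other genes were bright. At WT S1 a probe set that includes H2ac12 averaged 11.27, and another that includes H2bc9 and H2bc14 averaged 12.07. Low values on a gene's own probe set therefore do not show that the gene was silent.

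Probe sets shared by several histone genes gave a view of the H3 genes and of copies the rule leaves out, though some also name members. The table held 38 such probe sets, 21 above the filter with 18 distinct profiles, since some repeat the same values. From S2 to S3, 11 of the 18 fell in WT and 11 in Mst1KO, and none rose. In a fit over all probe sets 8.36% were called lower in WT and 5.37% in Mst1KO. Shared probe sets that name a tested member fell less in WT than that member's own. The fall was -0.67 ± 0.16 with H4c9, -0.72 ± 0.10 with H2ac20 and -0.68 ± 0.11 with H2ac10 and H2ac15. With H2bc12 it was -1.66 ± 0.17 and -1.11 ± 0.17. The cause was not tested. A probe set shared by H3c10, H3c1, H3c11 and H3c8 fell by 1.14 (SE 0.20, adjusted p = 0.00124) in WT and was at -0.62 ± 0.20 in Mst1KO (adjusted p = 0.0674). A second, shared by 8 H3 genes with H3c15 first, fell in WT (-1.14 ± 0.16, adjusted p = 0.000163) and in Mst1KO (-1.004 ± 0.16, adjusted p = 0.000803). The other 2 tested H3 probe sets were at 0.57 ± 0.22 and 1.101 ± 0.48 in WT and 0.46 ± 0.22 and -0.34 ± 0.48 in Mst1KO and were not called. No shared probe set was called by limma between the genotypes (0 of 18 at each stage, where 0.0777%, 0.272% and 1.2% of all probe sets were). Nor was the genotype difference of the S2 to S3 step called in any of the 18.

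Lists of genes for DNA replication and histone handling were set beside the members. Of 27 tested DNA replication genes 24 fell from S2 to S3 in WT and 20 in Mst1KO, with medians of -1.45 and -0.78, among them Mcm6, a subunit of the replicative helicase (-0.81 ± 0.10 and -0.34 ± 0.10). Pcna, the sliding clamp, was at -0.32 ± 0.08 (called) and -0.12 ± 0.08 (not called). From S1 to S2, 5 of the 27 fell in WT and 12 in Mst1KO, a step at which 0 and 1 histone genes were called. All 21 tested mitosis genes fell from S2 to S3 in both genotypes, with medians of -2.60 and -1.78, such as Mki67 (-2.72 ± 0.26 and -1.74 ± 0.26). Between genotypes at S3, 1 replication gene, Gins1 (1.06 ± 0.22), and 3 mitosis genes, Cdk1 (0.74 ± 0.20), Aurka (0.72 ± 0.19) and Ube2c (0.80 ± 0.21), were higher in Mst1KO. The genotype difference of the S2 to S3 step was called in 0 of the 27 replication genes and 0 of the 21 mitosis genes, beside 0.368% of all genes.

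Some histone chaperones carry new histones to the replication fork, and the list also held others, such as Hira, Daxx and Atrx. Of 17 tested, 9 fell from S2 to S3 in each genotype, led by Asf1b (-2.13 ± 0.17 in WT and -1.61 ± 0.17 in Mst1KO) and Chaf1a, a subunit of CAF-1 (-1.64 ± 0.16 and -1.30 ± 0.16). Nasp, which buffers H3 and H4, fell in WT (-0.71 ± 0.13) and was at -0.16 ± 0.13 in Mst1KO. The genotype difference of this step was called in 0 of the 17 chaperone genes. Genes for the transcription and 3′ processing of histone RNA moved less: from S2 to S3, 0 of 18 fell and 1, the uridylyl transferase gene Tut4, rose in each genotype (0.47 ± 0.09 and 0.31 ± 0.09). From S1 to S3, 2 rose in WT, Tut4 (0.62 ± 0.09) and Tut7 (0.31 ± 0.09), and 1 in Mst1KO, Tut4 (0.32 ± 0.09). Over the same span 8 fell in WT and 7 in Mst1KO, Npat (-0.32 ± 0.11) in both, while Slbp fell in WT (-0.41 ± 0.09) and was at -0.02 ± 0.09 in Mst1KO. Its mean at S1 was 8.93 in WT and 8.65 in Mst1KO, and the genotype difference of the S1 to S3 change was not tested. That of the S2 to S3 step was called in 0 of the 18 genes. Between the genotypes at S3, 1 of the 18, Tut4, was lower in Mst1KO (-0.44 ± 0.09).

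Histone variant genes that are expressed outside S phase were a further list. Of 6 tested, 4 fell from S2 to S3 in WT and 3 in Mst1KO. H2ax, whose product marks DNA breaks when phosphorylated and whose RNA also has a stem-loop form, fell in both (-1.94 ± 0.21 and -1.78 ± 0.21). Cenpa, the H3 variant of centromeres, fell in both (-1.17 ± 0.13 and -0.72 ± 0.13), as did H2az2 (-0.80 ± 0.13 and -0.69 ± 0.13). H2az1 fell in WT (-0.32 ± 0.11) and was at -0.22 ± 0.11 in Mst1KO, and Macroh2a1 (0.15 ± 0.09 and 0.20 ± 0.09) and H2aj (-0.02 ± 0.16 and -0.01 ± 0.16) were not called. For this step the genotype difference was called in 0 of the 6 variant genes.

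Some marker genes of other cells moved with the same stages. The sort took cells positive for TCRb and the CD1d tetramer and negative for CD24, a gate that B cells, macrophages, NK cells and most gamma-delta T cells should not pass, and iNKT cells that bear NK1.1 are known to express NK receptor genes themselves. Fewer dividing cells in a sort and less histone RNA per cell cannot be told apart in bulk samples. From S2 to S3, 4 of 4 tested NK and innate lymphoid markers rose in WT and 3 of 4 in Mst1KO, their mean level per array going from 4.65–4.86 to 6.36–6.45 in WT and from 5.24–5.47 to 6.46–6.70 in Mst1KO. Macrophage and dendritic cell markers rose in 4 of 10 cases in WT and 6 of 10 in Mst1KO, with mean levels of 5.22–5.33 and 5.65–5.86 in WT and 5.55–5.65 and 5.95–6.37 in Mst1KO. Of 3 gamma-delta T cell markers 2 fell in each genotype, from 7.64–8.03 to 5.96–6.47 in WT and from 8.11–8.42 to 7.37–7.55 in Mst1KO. Of 7 conventional T cell markers 3 fell in each, to 7.004–7.12 in WT and 6.93–7.09 in Mst1KO. B cell and immature thymocyte markers had mean levels between 3.93 and 5.32, with 1 of 4 tested immature thymocyte markers rising in each genotype and the 1 tested B cell marker not called. The 1 erythroid marker on the array was not tested. At S3, 2 of 3 gamma-delta, 2 of 4 NK, 1 of 10 macrophage and 2 of 10 iNKT and T cell markers were higher in Mst1KO than in WT. No marker of the other lists was called there, beside 3.4% of all genes. At S2, 1 gamma-delta, 1 NK and 1 macrophage marker were higher, beside 1.17% of all genes. Which cells expressed these genes was not tested, and iNKT cells may express some of them. The part of these cells in the histone changes was not tested.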

How the data were processed

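RNA from sorted cells was amplified with the NuGEN WTA Pico v2 and Encore Biotin kits and hybridised to MoGene-2_0 arrays; how cDNA synthesis was primed, which bears on RNA without a poly(A) tail, was not stated by the labels. Per the submitters' processing notes the deposited log2 values came from RMA in Affymetrix Expression Console 1.1, that is background-corrected, quantile-normalized and summarised per probe set by the authors. The table had 41345 probe sets: 23521 named 1 gene, 1814 more than 1 and 16010 had no name.

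Probe sets above their array's median on at least 3 of 18 arrays were kept, and the brightest per gene gave 13034 genes. A model with 6 group means was fitted in limma 3.58.1 (R 4.3.3; lmFit, eBayes), and p-values of 9 comparisons and 2 genotype differences were adjusted by Benjamini-Hochberg over all genes. Python 3.11.15, pandas 2.3.3 and matplotlib 3.10.9 were also used. Data were also simulated for WT S3 against S2 over 13034 genes, with independent normal noise of the fit's own variances and 50 genes changed at each size. The fit recovered 32%, 92%, 100% and 100% of changes of 0.5, 1, 2 and 3 (log2), and 4.14% of its calls were unchanged genes. In the measured comparison 23.6% of genes were called and noise need not be independent, so these figures do not give the error of the real calls.

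Named genes were up to 3 called members with the lowest p per comparison, up to 3 never called with the highest level and the brightest of each class; H4c14, H1f2 and others given with values were added. The members and lists were chosen with earlier results of these data known. Alternatives covered the filter, scaling, variance model, array weights, probe set choice, the groups fitted, a replicate block and leaving out each array.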

Additional observations from a re-analysis of the deposited data

Results flagged for a closer look

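In H1f5, a linker histone gene, the arrays of the genotypes did not overlap at S2 or at S3, and the difference had opposite signs. At S2 its Mst1KO arrays (6.41, 6.31 and 6.5002) all lay below its WT arrays (6.60, 6.57 and 7.72), a difference of -0.56, and at S3 its Mst1KO arrays (4.27, 4.26 and 4.34) all lay above WT (4.13, 3.71 and 4.07), a difference of 0.32. Neither was called, and the difference between these differences, 0.88 ± 0.40, was not called by limma either (adjusted p = 0.419). At S2, WT replicate 3 stood apart from the other WT arrays, and all S3 values lay below the array medians. The signs were not particular to H1f5: 15 of 16 members lay below 0 at S2 and 12 of 16 above 0 at S3. Of all 13034 genes, 6074 lay below 0 at S2 and 6786 above 0 at S3. Members read on the same arrays are not independent observations. H2bc21 had -0.48 and 0.43, also not called, with arrays that overlapped at S2.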

How the results depend on the processing

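The members called from S2 to S3 and from S1 to S3 stayed within 1.5 times their counts under every alternative. Leaving out each array gave 11 to 13 called in WT S3 against S2, 13 to 14 in WT S3 against S1, 8 to 10 and 11 to 12 in the same Mst1KO comparisons, 0 to 1 in WT S2 against S1 (H4c14, without WT S2 replicate 3), 0 to 1 in Mst1KO against WT at S3 (H2bc12), 1 in Mst1KO S2 against S1 and 0 elsewhere. Mst1KO S2 against S1 had 0 with the stricter filter, at the 75th percentile, which does not test H2bc21, and 3 (H2bc21, H1f5 and H4c9) in the fit on only the groups compared; the cause was not tested. Signs were followed gene by gene in all tested members except H1f1, H2ac15, H2ac20 and H2bc18. Apart from fits that left out an array, they turned in values near 0. H1f8 turned in the genotype difference of the S1 to S2 step (-0.022 with quantile normalization repeated, -0.015 with arrays centred on their medians). H4c12 turned between genotypes at S3 (0.0096, centred). With array weights H1f2 turned between genotypes at S2 (0.053) and H2ac10 in WT S2 against S1 (2.01e-05). Over all tested members, those above 0 between genotypes at S1 went from 8 to 7 with quantile normalization repeated. The cause was not tested. The fit with the replicate block called 12 members in WT S3 against S2 and 10 in Mst1KO S3 against S2, as without it, and changed no count of members called in any comparison. Deviations of same-numbered arrays correlated between -0.0526 and 0.2056 within a genotype (median 0.0618), 3 of 18 pairs over 0.1. Differently numbered arrays of a genotype had a median of -0.0219, with 0 of 36 pairs over 0.1. Across genotypes the medians were 0.0293 for the same number and -0.0204 for different numbers. Same-numbered arrays were thus slightly more alike, and a shared mouse or batch was not tested. Since the labels do not say what a number marks, the main fit did not pair the samples. Of the 8 members above the median on all 18 arrays, a set chosen after seeing the data, 7 fell from S2 to S3 in WT and 5 in Mst1KO. Genes near the array medians are limited by background signal.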
